A study of Homo sapiens with 12 samples.

Results

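MHC class I presentation was described through 9 genes: the heavy chains HLA-B, HLA-C, HLA-E and HLA-F, the light chain B2M, the peptide transporter subunits TAP1 and TAP2, the loading factor TAPBP (tapasin) and the transactivator NLRC5. The members were taken by gene symbol from an expression table of 58735 genes, and all 9 were among the 18079 genes whose mean level reached 0.1 FPKM. FPKM, the unit used throughout, is the number of fragments per kilobase of a gene's exons, scaled to the sequencing depth of its library.

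MHC class I molecules carry short peptides from inside the cell to its surface, where CD8+ T cells and natural killer cells read them. Proteasomes cut proteins into peptides, TAP1 and TAP2 together pump them into the endoplasmic reticulum, and tapasin holds an empty heavy chain and B2M at the pump until a fitting peptide is bound. TNF-α acts on this pathway mainly through NF-κB, interferons act through STAT and IRF factors, and NLRC5 joins a complex on the promoters of class I genes. In the intestine, epithelial cells use the pathway to show infection or transformation to lymphocytes in the mucosa.

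The libraries came from NCM460, an epithelial cell line described by its labels as normal human colon, and there were 12 of them, 3 in each of 4 groups. Wild-type cells were kept in medium, given TNF-α, or given TNF-α with 5-OH-TMT (5-hydroxy-N,N,N-trimethyltryptamine, a quaternary ammonium derivative of bufotenine that the labels call Bufotenidine). In the fourth group HTRA2, a mitochondrial serine protease studied as the target of 5-OH-TMT, was knocked down and TNF-α was given. The study picked a noncytotoxic concentration of 5-OH-TMT for its mechanistic work in this line, but neither its RNA-seq methods nor the labels give a dose or time of TNF-α or 5-OH-TMT for these libraries. The study used siRNA for knockdown and describes 3 siRNAs, and whether the 3 knockdown libraries hold 1 siRNA or several was not stated. The study describes its knockdown comparison as made against a control siRNA, but no label names one and the TNF-α libraries are labelled wild type. The knockdown was therefore compared with the libraries labelled TNF-α. Whether these had received a control siRNA was not stated, and if they had not, loss of HTRA2 and transfection itself cannot be told apart. Nothing states that the libraries of a group came from separate cultures, so the p-values measure the spread between libraries, which may be technical.

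Reads on genes numbered 31008429 to 37624399 per library. HTRA2 measured 14.0, 17.2 and 13.3 FPKM in medium, 15.4, 14.0 and 14.2 under TNF-α, 15.4, 15.5 and 14.8 when 5-OH-TMT was added, and 7.44, 7.18 and 7.22 in the knockdown, where it was 0.502 times the TNF-α mean (log2 fold change -0.98 ± 0.09 (SE), adjusted p = 2.77e-05 by limma). All 5 epithelial markers were present, with summed levels of 2118 to 2689 FPKM, whereas none of 8 colon epithelial markers reached a mean of 0.1 FPKM and CDX2, the colon identity factor, was listed at 0 in every library. Summed over the list, the colon markers stayed between 0.0111 and 0.236 FPKM, so the labelled colon identity was not seen in these markers. The second knockdown library stood furthest from the others of its group and had the lowest mitochondrial share of reads, 2.95% against 3.69 to 4.68% elsewhere. Knockdown results are therefore also given without it.

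Promoter sequences were shown for the members because their responses to TNF-α and to the knockdown differed, and because the elements below are those through which NF-κB and interferon factors are known to act. RefSeq promoters (GRCh38.p14, 250 bases before to 50 after the transcription start) were matched for 7 of the 9 members, HLA-E and NLRC5 not among them. The interferon-response pattern (GAAA, any 2 bases and GAAA again), searched on both strands, was found in 5 of these 7 promoters and in 3.57% of 35116 human promoters. Capitals mark the pattern, overlapping copies run together, and positions count back from the start.
TAP1, chr6:32853816-32853845, minus strand, from -134: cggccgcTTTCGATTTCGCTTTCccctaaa
TAP2, chr6:32838778-32838807, minus strand, from -58: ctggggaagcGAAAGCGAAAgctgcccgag
TAPBP, chr6:33314079-33314108, minus strand, from -20: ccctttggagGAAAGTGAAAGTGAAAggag
B2M, chr15:44711366-44711395, plus strand, from -144: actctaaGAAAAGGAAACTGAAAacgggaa
HLA-F, chr6:29723268-29723297, plus strand, from -156: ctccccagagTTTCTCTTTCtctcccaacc
TAP1 has a further RefSeq start downstream, whose promoter lacked the pattern. The NF-κB-like pattern (GGG, any 5 bases and CC) was found in 6 of the 7 promoters, all but HLA-F, but also in 58.7% of all promoters. It is shown for HLA-B and HLA-C, neighbouring heavy chains that responded unequally. HLA-C has a further match from -188, not printed. Any part of these sequences in the unequal responses was not tested.
HLA-B, chr6:31357337-31357366, minus strand, from -177: gcgcagcgttGGGGATTCCCCactcccctg
HLA-C, chr6:31272245-31272274, minus strand, from -172: cgccgcgttgGGGATTCTCCactcccctga
CCAAT was present in 5 of the 7 promoters (34.6% of all) and TGACG in 4 (24.6%), both strands searched for each. TTCNNNGAA, searched in the same way, was matched for 1 of the 7 members, TAP1, and only at its further downstream start (7.66% of all promoters). These are matches of letters in the reference, and binding was not measured.

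TNF-α raised 7 of the 9 members above medium, and TAP1 (2.22-fold) and TAPBP (1.89-fold) led. HLA-C and NLRC5 did not pass the test. Across all genes tested, 3.22% were called higher in this comparison (limma on log2(FPKM + 0.1), adjusted p under 0.05). The median log2 fold change was 0.57 for the members and -0.0020 for all genes. By the fold rule of the study (at least 2-fold and an unadjusted p of at most 0.05), TAP1 alone passed, beside 1.76% of all genes.

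After HTRA2 knockdown, 8 of the 9 members were higher than with TNF-α alone, and HLA-F (2.41-fold), HLA-B (2.36-fold) and TAP1 (2.02-fold) led. TAP2 was the member that did not pass. Of all genes tested, 9.35% were called higher in this comparison and 8.08% lower. The members' median log2 fold change was 0.68, against -0.0034 over all genes, and the 3 leading members met the fold rule, as did 3.08% of all genes. Without the second knockdown library the count was again 8.

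Adding 5-OH-TMT to TNF-α gave smaller differences, and 0 of the 9 members passed the test with limma. Only 7 of the 18079 genes, 0.0387%, were called in either direction. At an unadjusted p under 0.05, HLA-C, TAP1 and TAPBP were higher, that is 3 members against 9.6% of all genes. For 5 members the lowest 5-OH-TMT library exceeded the highest library given TNF-α alone (HLA-C, HLA-E, TAP1, TAPBP and NLRC5), an upward separation seen in 16.3% of all genes. A fit with voom on the reads recovered from the FPKM values called 2 members, TAP1 and TAPBP, beside 1.31% of all genes, and a fit to the compared groups alone called 1, TAP1, beside 5.04%.

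Across the 4 groups, the mean levels of 7 members climbed from medium through TNF-α alone and the 5-OH-TMT group to the knockdown, an order held by 7.96% of all genes. TAP2 and NLRC5 departed from it. For 7 members every knockdown library exceeded the 9 other libraries (8.72% of all genes), TAP2 and TAPBP being those that overlapped.

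**Figure D1:**
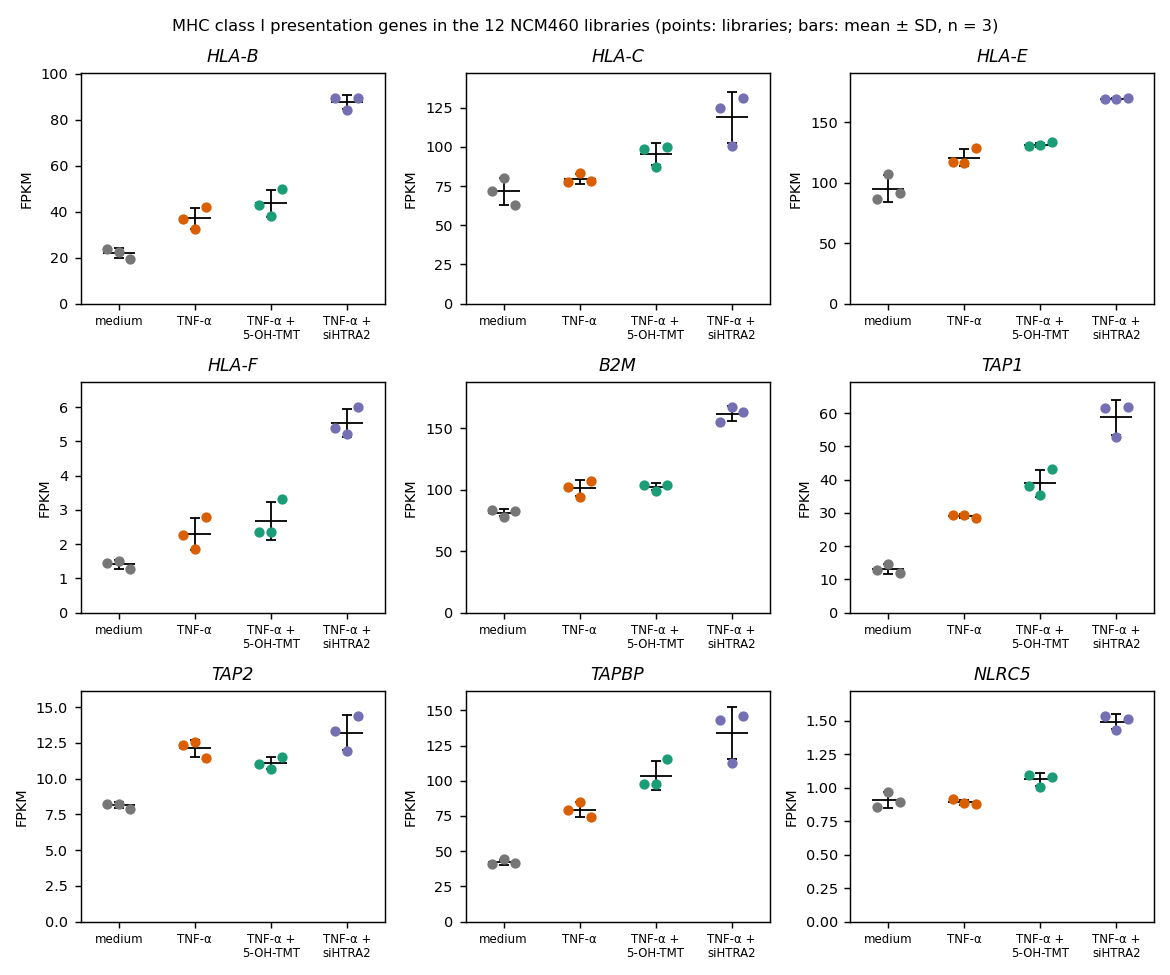
Level of each of the 9 genes in FPKM (vertical axis, from 0) in the 12 libraries by group, each point 1 library and each bar the mean ± SD of 3. The knockdown libraries stand above the 9 others in 7 panels, and TAP2 and TAPBP are the panels where they overlap another group.

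Among the heavy chains, HLA-B is a classical molecule that presents peptides to CD8+ T cells. It measured 23.8, 22.6 and 19.6 FPKM in medium, 36.7, 32.5 and 41.9 under TNF-α, 42.9, 38.1 and 49.7 when 5-OH-TMT was added and 89.2, 84.0 and 89.4 after knockdown. Medium was lowest and the knockdown highest, with no overlap, whereas the TNF-α and 5-OH-TMT libraries interleaved. The log2 fold change was 0.74 ± 0.11 (SE) with TNF-α (adjusted p = 0.00195, limma) and 1.25 ± 0.11 in the knockdown (adjusted p = 2.95e-05, limma). With 5-OH-TMT it was 0.23 ± 0.11 (adjusted p = 0.268, limma). From medium to knockdown HLA-B rose 3.98-fold.

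HLA-C, which presents peptides and is also a ligand of inhibitory receptors on natural killer cells, began higher and moved less. Its libraries gave 71.9, 80.1 and 62.7 FPKM in medium, 77.4, 83.1 and 78.5 under TNF-α, 98.7, 87.4 and 100.2 when 5-OH-TMT was added and 125, 101 and 131 after knockdown. The TNF-α libraries overlapped medium, and the second knockdown library lay barely above the highest 5-OH-TMT library. The TNF-α difference was 0.16 on the log2 scale (95% interval -0.08 to 0.40, adjusted p = 0.569, limma). The knockdown rose 1.49-fold over TNF-α (log2 0.57 ± 0.11, adjusted p = 0.00389, limma). Against 5-OH-TMT the knockdown missed the threshold for HLA-C (log2 0.31 ± 0.11, adjusted p = 0.0772, limma).

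HLA-E, which displays leader peptides of other class I chains to natural killer cells, was the tightest member within the knockdown. It measured 86.3, 107 and 91.3 FPKM in medium, 117, 116 and 129 under TNF-α, 130.1, 131 and 133 when 5-OH-TMT was added and 169, 169 and 170.1 after knockdown. No pair of groups overlapped. TNF-α gave 1.27-fold (adjusted p = 0.0237, limma) and the knockdown a further 1.41-fold (adjusted p = 0.00108, limma). The TNF-α call for HLA-E held under 7 of 10 alternatives with all libraries and under 1 of 6 that left a library out.

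HLA-F, a nonclassical chain that can reach the surface without peptide, was the least abundant heavy chain. Its libraries held 1.44, 1.51 and 1.27 FPKM in medium, 2.26, 1.85 and 2.78 under TNF-α, 2.36, 2.36 and 3.33 when 5-OH-TMT was added and 5.39, 5.22 and 6.01 after knockdown. The third library was the highest in both the TNF-α and the 5-OH-TMT groups, which overlapped. The knockdown stood clear of all others at 2.41 times TNF-α (log2 1.25 ± 0.16, adjusted p = 0.000296, limma). The TNF-α rise of HLA-F (1.63-fold, adjusted p = 0.0422, limma) held under 6 of 10 alternatives and under 1 of the 6 that left a library out.

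B2M, the light chain that every class I heavy chain needs for folding, was followed next. It measured 83.7, 78.0 and 82.5 FPKM in medium, 103, 94.0 and 107 under TNF-α, 104, 99.1 and 104 when 5-OH-TMT was added and 155, 168 and 163 after knockdown. The middle groups covered the same range, medium lay below them and the knockdown above. TNF-α gave 1.24-fold (adjusted p = 0.0133, limma), a call kept under 7 of 10 alternatives and 4 of the 6 that left a library out. The knockdown gave 1.60-fold over TNF-α (log2 0.68 ± 0.06, adjusted p = 3.80e-05, limma). Adding 5-OH-TMT moved B2M by 0.02 on the log2 scale, with a 95% interval from -0.12 to 0.16, the narrowest interval among the members.

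TAP1, a subunit of the peptide pump, had the largest TNF-α response of the members. Its values were 12.7, 14.7 and 11.9 FPKM in medium, 29.4, 29.4 and 28.3 under TNF-α, 38.1, 35.3 and 43.2 when 5-OH-TMT was added and 61.6, 52.7 and 61.9 after knockdown. The 4 groups formed separate steps with no overlap. On the log2 scale TNF-α raised it by 1.15 ± 0.10 (adjusted p = 1.88e-05, limma) and the knockdown by a further 1.01 ± 0.10 (adjusted p = 4.45e-05, limma). The step from TNF-α to 5-OH-TMT was 0.41 ± 0.10 and missed the threshold (adjusted p = 0.0922, limma), with a range of 0.0325 to 0.174 over 10 alternatives. Between medium and knockdown TAP1 rose 4.49-fold, the largest span of the 9 genes.

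TAP2, the partner subunit, did not follow TAP1 past TNF-α. It measured 8.24, 8.24 and 7.88 FPKM in medium, 12.3, 12.6 and 11.4 under TNF-α, 11.0, 10.7 and 11.5 when 5-OH-TMT was added and 13.3, 11.9 and 14.4 after knockdown. The 3 TNF-α-treated groups lay close together above medium. TNF-α raised TAP2 1.49-fold (log2 0.57 ± 0.08, adjusted p = 0.000765, limma). The knockdown differed from TNF-α by 0.12 (95% interval -0.05 to 0.29, adjusted p = 0.315, limma) and 5-OH-TMT by -0.13 (95% interval -0.29 to 0.04). Between knockdown and 5-OH-TMT the difference passed (log2 0.25 ± 0.08, adjusted p = 0.0467, limma), a call kept under 6 of 10 alternatives and 1 of the 6 that left a library out. The reading of TAP2 may rest on part of the gene. Of the 50-base words of its main transcript, 80.2% also occur in AL669918.1. This overlapping gene on the same strand was listed at 0 in every library. Of all annotated exonic bases of TAP2, 32.3% were shared with it. How reads in the shared exons were counted was not stated, and the part of this overlap in the TAP2 levels was not tested.

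TAPBP encodes tapasin, which bridges the pump and the empty class I molecule. It measured 40.8, 44.3 and 41.3 FPKM in medium, 79.3, 85.0 and 74.2 under TNF-α, 97.7, 97.5 and 115 when 5-OH-TMT was added and 143, 112 and 146 after knockdown. The first steps were separate, while the second knockdown library fell below the highest 5-OH-TMT library. TNF-α raised TAPBP by 0.91 ± 0.10 on the log2 scale (adjusted p = 0.000226, limma), and the knockdown by a further 0.74 ± 0.10 (adjusted p = 0.000532, limma). With 5-OH-TMT the difference was 0.38 ± 0.10 (adjusted p = 0.110, limma).

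NLRC5, the transactivator of class I genes, was the lowest member, and its TNF-α difference was the smallest of the 9. It stood at 0.855, 0.971 and 0.892 FPKM in medium, 0.913, 0.883 and 0.879 under TNF-α, 1.10, 1.01 and 1.08 when 5-OH-TMT was added and 1.54, 1.43 and 1.51 after knockdown, from 341 to 687 reads a library. Medium and TNF-α overlapped, every 5-OH-TMT library was above both, and the knockdown was above all. The TNF-α difference was -0.02 (95% interval -0.26 to 0.22, adjusted p = 0.965, limma). The knockdown raised NLRC5 1.68-fold (log2 0.68 ± 0.11, adjusted p = 0.00124, limma), and 5-OH-TMT differed by 0.23 ± 0.11 (adjusted p = 0.265, limma).

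**Figure D2:**
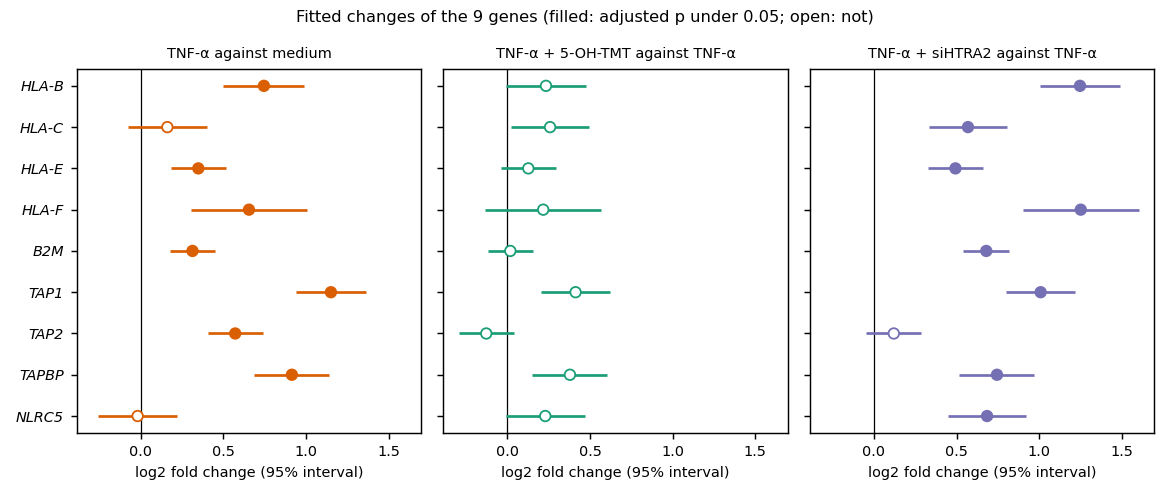
Log2 fold change of each gene on the horizontal axis with its 95% interval, in panels for TNF-α over medium, 5-OH-TMT over TNF-α alone, and knockdown over TNF-α alone, filled where the adjusted p was under 0.05. Filled points number 7, 0 and 8, and all of them lie right of 0. Every panel uses the same TNF-α libraries, set against medium in the first panel and used as the reference in the others.

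The remaining pairs of groups were also compared directly. Against medium, 5-OH-TMT with TNF-α gave 8 higher members (4.99% of all genes), NLRC5 the exception, and the knockdown gave 9 of 9 (12.9% of all genes). Against 5-OH-TMT the knockdown was higher for 8 members (7.85% of all genes), with HLA-B at 2.01-fold and HLA-F at 2.06-fold. Without the second knockdown library these last counts were 9 and 9. Leaving out the second 5-OH-TMT library or the first knockdown library brought the count against 5-OH-TMT to 5. For single members the exact two-sided permutation test of 3 libraries against 3 cannot go below p = 0.1, which it reached wherever groups did not overlap.

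Unequal responses were measured as ratios within a library, which no scaling factor of a library can change. The 5 ratios computed were chosen after the values of the members had been seen. The ratio of TAP1 to TAP2 was 1.61 ± 0.15 (SD, n = 3) in medium, 2.40 ± 0.07 under TNF-α, 3.50 ± 0.24 when 5-OH-TMT was added and 4.45 ± 0.17 after knockdown. No groups overlapped in this ratio, and each comparison gave the smallest p of the exact permutation test, 0.1. The 5-OH-TMT difference in this ratio was 0.54 on the log2 scale, with TAP1 higher in every library and TAP2 lower in mean. The ratio pairs the members with the highest (TAP1, 0.41) and the lowest (TAP2, -0.13) change in that comparison. Its size therefore follows from the choice of the pair. The exons TAP2 shares with AL669918.1 limit this ratio too. Leaving out any single library kept this difference between 0.49 and 0.58.

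The ratio of HLA-B to HLA-C was 0.309 ± 0.024 (SD, n = 3) in medium and 0.466 ± 0.071 with TNF-α. With 5-OH-TMT it was 0.456 ± 0.035, overlapping TNF-α, and in the knockdown it was 0.744 ± 0.081, above every other library. B2M relative to the sum of the 4 heavy chains kept a mean of 0.432, 0.423, 0.375 and 0.426 through the same groups. The 5-OH-TMT libraries were below all TNF-α libraries in this ratio (exact permutation p = 0.1), and the knockdown overlapped TNF-α. HLA-B relative to HLA-E had means of 0.234, 0.307, 0.331 and 0.516 in that order of groups. TAPBP relative to TAP1 fell from 3.23 in medium to 2.73 with TNF-α and 2.27 in the knockdown, each step without overlap, as TAP1 rose more than TAPBP.

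**Figure D3:**
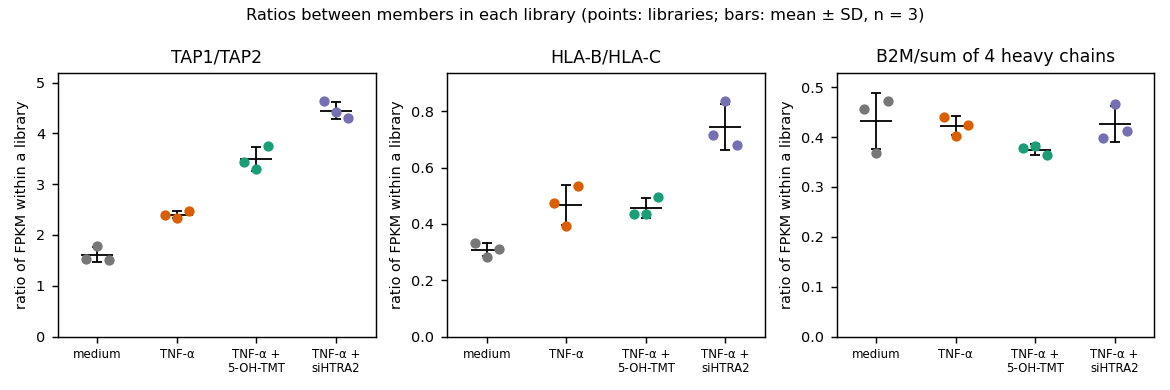
Ratios of FPKM within each library (vertical axis, from 0) by group, each point 1 library and each bar the mean ± SD of 3. TAP1/TAP2 climbs from 1.61 to 4.45 in 4 separate levels, HLA-B/HLA-C is highest in the knockdown at 0.744, and B2M relative to the heavy chains stays between means of 0.375 and 0.432.

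The proteasome genes that supply peptides were divided in the knockdown. Of 9 such genes, TNF-α raised 3, all immunoproteasome subunits: PSMB9 (log2 1.04 ± 0.10), PSMB10 (0.53 ± 0.09) and PSMB8 (0.48 ± 0.08). In a fit to the compared groups alone PSMB9 was the single TNF-α call of this list. The knockdown raised 5 and lowered 3 of the 9, where 9.35% of all genes were called higher and 8.08% lower. PSMB10 rose by a further 1.20 ± 0.09, PSMB9 by 1.17 ± 0.10 and PSMB8 by 0.71 ± 0.08, beside the activator subunits PSME1 and PSME2. Lower were PSMB6 (-0.39 ± 0.10) and PSMB7 (-0.29 ± 0.07), catalytic subunits of the constitutive proteasome, and PSME3 (-0.41 ± 0.09), a nuclear activator. The list's median log2 fold change was 0.17 with TNF-α and 0.31 in the knockdown. These and PSME1 and PSME2 were named after their values were seen.

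Of 9 genes of loading and trimming, TNF-α raised 2, where 3.22% of all genes were called higher. The knockdown raised 2, where 9.35% of all genes were called higher. It lowered 1, close to the share of 8.08% over all genes. The genes raised with TNF-α were ERAP1 (log2 0.50 ± 0.08), which trims peptides to length, and the chaperone HSPA5 (0.38 ± 0.09). In the knockdown TAPBPL, a tapasin-related peptide editor, rose by 0.87 ± 0.15 and ERAP1 by 0.49 ± 0.08, while calnexin (CANX), a folding chaperone of heavy chains, fell by 0.36 on the log2 scale. The list's median log2 fold change was 0.23 with TNF-α and 0.22 in the knockdown. The calls of HSPA5 with TNF-α and of CANX in the knockdown were lost in a fit to the compared groups alone.

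Regulators and receptors upstream of the class I promoters numbered 21, and TNF-α raised 10 of them, where 3.22% of all genes were called higher. The NF-κB subunits RELB (log2 4.18 ± 0.14) and NFKB1 (1.30 ± 0.10) led, with the interferon-γ receptor chain IFNGR2 (0.95 ± 0.07). The knockdown raised 9 and lowered 1, where 9.35% of all genes were called higher and 8.08% lower. The lower call did not exceed that share. STAT2, a mediator of interferon signalling, rose from 18.2 to 32.0 FPKM in mean (log2 0.81 ± 0.07). RFXAP, a subunit of the complex that NLRC5 joins, was lower by -0.93 ± 0.26. The list's median log2 fold change was 0.47 with TNF-α and 0.30 in the knockdown. Without the second knockdown library RFXAP no longer passed (adjusted p = 0.0867, limma) and 10 regulators were higher, while the counts of both other lists stayed the same.

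With 5-OH-TMT, 0 genes of the peptide supply, loading and regulator lists passed the test in limma. At an unadjusted p under 0.05, 5 of the 9 peptide supply genes were higher, 1 of the 9 loading genes was higher and 2 were lower, and 5 of the 21 regulators were higher and 1 was lower, beside 9.6% of all genes higher and 10.5% lower. With voom 2 peptide supply genes were called higher, 1 loading gene lower and 0 regulators. A fit to the compared groups alone called 3 peptide supply genes higher, 1 loading gene higher and 1 lower, and 1 regulator higher, where it called 5.04% of all genes.

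**Figure D4:**
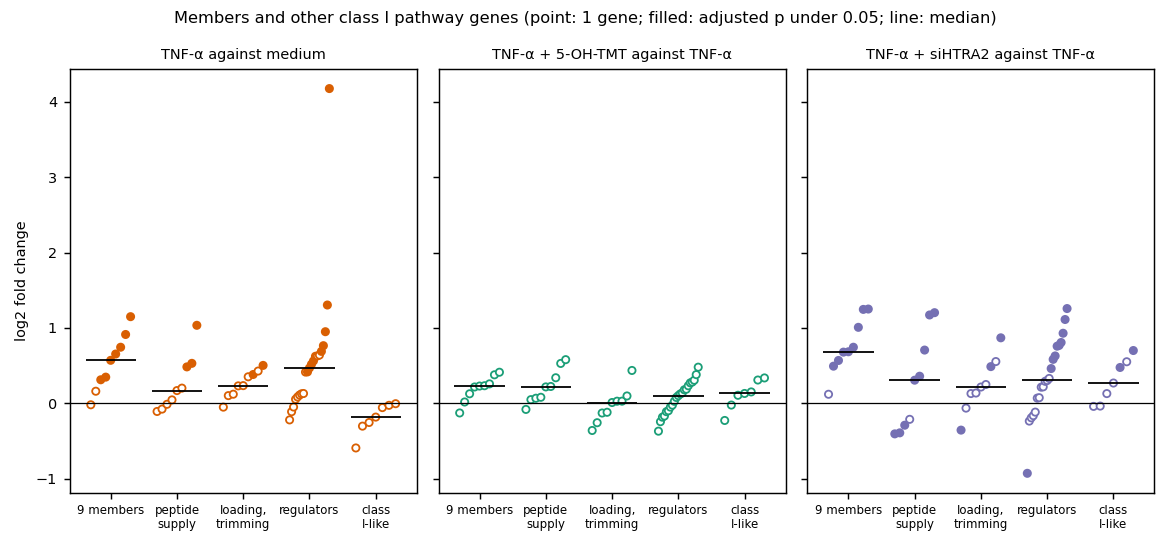
Log2 fold change (vertical axis) of the 9 members and of the other pathway genes tested, by list and comparison, each point 1 gene, filled where the adjusted p was under 0.05, with a line at the list's median. In the knockdown panel the peptide supply list holds 5 filled points above 0 and 3 below, and in the 5-OH-TMT panel no point is filled.

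Genes whose profile over the 12 libraries was most like the mean of the 9 members were ranked by Pearson's r among 11176 genes at 1 FPKM or more, as a description, since all points share the 4 groups. HELZ2, a helicase co-activator, came first (r = 0.994), followed by OAS3, an interferon-induced synthetase (r = 0.992). MARCKSL1, ADGRF4, EFNB1, ITGA5, ZC3H12A, SPINT1, ATF3 and ECE1 completed the first 10, the last at r = 0.989. HELZ2 rose by 0.69 with TNF-α and by 1.53 in the knockdown on the log2 scale. Nearest to NLRC5 were ALOX5, FBLN1, SRPX2, TMPRSS4 and HRASLS2, with r from 0.984 to 0.987. Each member's own r with the mean of the other 8 ranged from 0.84 for TAP2 to 0.99 for HLA-B.

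Some markers of other cell types moved with these results. CDH5, an endothelial cadherin, was called higher with TNF-α and again in the knockdown. The summed level of the 3 endothelial markers ran from 0.491 to 0.597 FPKM in medium, 1.42 to 1.57 under TNF-α, 1.77 to 2.01 when 5-OH-TMT was added and 2.21 to 3.62 after knockdown. Most of this sum was CDH5, with means of 0.335, 1.32, 1.65 and 2.79 FPKM in that order of groups. The other markers did not rise with TNF-α: PECAM1 averaged 0.148, 0.112, 0.131 and 0.158 FPKM, and VWF 0.078, 0.057, 0.087 and 0.086. Of 7 leukocyte markers only CD14 passed the filter, and the summed level was 0.231 to 0.524 FPKM in medium, 0.118 to 0.274 with TNF-α, 0.320 to 0.454 when 5-OH-TMT was added and 0.421 to 0.885 in the knockdown, with CD3E at 0 throughout. The 7 fibroblast markers summed to 5.25 to 6.07 FPKM in medium, 5.08 to 6.23 with TNF-α, 4.22 to 4.55 when 5-OH-TMT was added and 4.21 to 4.37 in the knockdown. In the knockdown CD14 and COL1A1 were called higher and VIM lower than with TNF-α. CD14 averaged 0.397 FPKM in medium, 0.095 with TNF-α and 0.443 in the knockdown, and a fit to the compared groups alone lost its call. Of the epithelial markers CDH1 and KRT19 were also called higher there and 3 were not called, where 9.35% of all genes were called higher. VIM averaged 4.59 FPKM with TNF-α and 3.00 when 5-OH-TMT was added (adjusted p = 0.0922, limma), a difference that voom called. The part of these markers in the members' changes was not tested, and in bulk RNA fewer cells of a type and less RNA per cell cannot be told apart.

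The members lie on 3 chromosomes of GRCh38 (GENCODE 29), 7 of them in the MHC region of chromosome 6. HLA-F (29722775 to 29738528, plus strand) and HLA-E (30489467 to 30494205, plus) come first, followed by HLA-C (31268749 to 31272130, minus) and HLA-B (31269491 to 31357188, minus). TAP2 (32821833 to 32838780), TAP1 (32845209 to 32853978) and TAPBP (33299694 to 33314387) follow, all on the minus strand. B2M is on chromosome 15 (44711487 to 44718877, plus) and NLRC5 on chromosome 16 (56989485 to 57083531, plus).

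Levels of different members can be compared only per length, and the FPKM values divide by the union of all annotated exons. That union exceeds the main transcript 3.57 times for B2M and 1.14 times for HLA-E. Recomputed per kilobase of the main transcript, on the assumption that all reads came from it, B2M was the most abundant member in medium (290.2 ± 10.8 (SD, n = 3)) and in the knockdown (578 ± 22.6). HLA-C (117 ± 14.2), TAPBP (113 ± 5.06) and HLA-E (109 ± 12.5) came next in medium and did not differ beyond their spread. HLA-B (43.4 ± 4.28) was below them, TAP1 (21.3 ± 2.32) and TAP2 (20.8 ± 0.53) were level with each other, and HLA-F (3.74 ± 0.33) and NLRC5 (1.65 ± 0.11) were lowest. In the knockdown HLA-B (173 ± 6.04) came near HLA-C (194 ± 26.4), and TAP1 (95.4 ± 8.44) stood above TAP2 (33.8 ± 3.14) on the same scale. The TAP2 values may be too low if reads in the exons shared with AL669918.1 were not counted. The order of TAP1 and TAP2 is therefore uncertain in every group.

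Reads that could belong to more than 1 gene limit some of these values. Of the 50-base words of the main transcript, 80.2% were shared with another gene for TAP2, the highest share of the members. The share was 6.8% for HLA-C, 5.1% for HLA-E, 2.5% for HLA-B, 1.7% for HLA-F and 1.1% for TAP1, and 0% for B2M, TAPBP and NLRC5. Exons of other genes on the opposite strand covered 28.5% of HLA-F, with HLA-F-AS1 at a mean of 0.650 FPKM, and 9.5% of TAP1, with PSMB8-AS1 at 1.46 FPKM. For HLA-B 18.9% of the exonic bases lay in other genes on either strand, 542 of 577 bases in AL671883.2 on the opposite strand, which averaged 0.0046 FPKM. Whether the counting used strand was not stated. HLA genes vary between people, reads were aligned to 1 reference, and the alleles of the line were not read here.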

How the data were processed

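RNA of NCM460 cells was captured by poly(A) selection, and 12 libraries were sequenced, 3 in each of 4 groups taken from the labels. The processing notes of the submitters name CASAVA 1.8, HISAT2 2.0.4, HTSeq 0.9.1 and hg38. The authors deposited FPKM per gene, a normalized unit. Gene coordinates equalled those of GENCODE 29 for 58735 of 58735 genes. FPKM multiplied by gene length and by a scaling total inferred for each library from the low values gave whole reads for 100% of the values (tolerance 0.01), from 31008429 to 37624399 reads per library. These reads gave the printed read numbers and mitochondrial shares, and they were fitted only in an alternative. Here the 18079 genes averaging 0.1 FPKM or more were fitted as log2(FPKM + 0.1) with limma 3.58.1 in R 4.3.3 (all 12 libraries in 1 fit, 8 residual degrees of freedom, eBayes with trend, two-sided), and p-values were adjusted by Benjamini-Hochberg over all genes of a comparison. Fold changes of low genes are understated by the pseudocount. The fit was tested on simulated data before use. Alternatives were pseudocounts of 1 and 0.01, a minimum of 1 FPKM or none, scaling of libraries by median ratios, quantile normalization, a fit to the groups compared, eBayes without trend, a term for the replicate number, voom on the recovered reads, and each library left out.

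All 9 members and HTRA2 are named. From each list of other pathway genes, up to 3 genes per comparison are named, those with the largest change among genes at 1 FPKM or more with an adjusted p under 0.05; 1 gene that this rule names is not reported here. The likeness lists hold the 10 genes nearest to the members and the 5 nearest to NLRC5. The members and lists were chosen with earlier results of these data known. Promoters come from RefSeq (GRCh38.p14).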

Additional observations from a re-analysis of the deposited data

How the results depend on the processing

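The numbers of members called in the knockdown against TNF-α (8), and in the knockdown against medium (9) did not move under any alternative run. For TNF-α against medium the count of 7 went to 4 when the fit held only the groups compared and to 4 when eBayes ran without trend, and it was 4 to 6 with a library left out (4 without the first or the third TNF-α library). HLA-E, HLA-F and B2M were the calls lost under both of those fits. HLA-E and HLA-F were also lost without a minimum FPKM, HLA-F with a pseudocount of 1 and B2M after quantile normalization. For 5-OH-TMT against TNF-α the count of 0 went to 1 (groups compared only) and to 2 (voom on recovered reads), and stayed at 0 with any library left out. It was 7 to 8 for 5-OH-TMT against medium and 5 to 9 for the knockdown against 5-OH-TMT with a library left out, with 5 without the second 5-OH-TMT or the first knockdown library. Over all genes, the 7 called for 5-OH-TMT against TNF-α became 3 with a pseudocount of 1, 4 after quantile normalization, 127 at 1 FPKM or more, 236 with voom, 911 when only the groups compared were fitted, and 1 without trend or with the replicate block. For TNF-α against medium voom gave 862 in place of 742, and fitting only the groups compared gave 392. Of the TNF-α calls in the pathway lists, the latter fit gave 1 against 3 for peptide supply, 1 against 2 for loading and 8 against 10 for regulators. The cause of these shifts was not tested. The replicate numbers did not pair the samples (5 of 18 same-number correlations were over 0.1, and in 8 of the 18 the best match in the other group carried the same number), and with the replicate number as a block the counts were 7, 0, 8, 7, 9 and 6.

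Small differences that had not passed the test changed sign. With 5-OH-TMT against TNF-α on the log2 scale, B2M was -0.042 after quantile normalization, -0.018 with voom and -0.034 to 0.058 with a library left out. In that comparison ERAP1 was -0.025 with voom and -0.022 to 0.056 with a library left out, NFKB1 -0.0066 and -0.056 to 0.071, and HFE -0.091 to 0.038 with a library left out. HTRA2 for 5-OH-TMT against medium was -0.0044 with voom and -0.025 to 0.16 with a library left out. Against medium with a library left out, TNF-α gave -0.056 to 0.027 for NLRC5 and -0.097 to 0.084 for HTRA2. HSPA5 in the knockdown was -0.13 to 0.024. No rescaling moved the median of all genes by more than 0.1 on the log2 scale.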

Other observations

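Other class I-like and nonclassical molecules, which resemble the heavy chains in fold, numbered 11, and 7 passed the filter. With TNF-α and with 5-OH-TMT, 0 of the 7 were called by limma, and 0 by voom. At an unadjusted p under 0.05, 2 were lower with TNF-α (5.92% of all genes) and 1 was higher with 5-OH-TMT (9.6%). In the knockdown MR1, which presents vitamin B metabolites to mucosal-associated invariant T cells, rose from a mean of 3.20 to 5.26 FPKM (log2 0.70 ± 0.07 (SE), adjusted p = 8.67e-05, limma). HFE, a regulator of iron uptake that pairs with B2M, rose from 6.33 to 8.82 FPKM (log2 0.48 ± 0.08, adjusted p = 0.00247, limma).

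Of 5 genes and pseudogenes with near-identical stretches to the heavy chains, 3 passed the filter and 0 were called in the 3 main comparisons by limma, and 0 by voom. At an unadjusted p under 0.05, 1 was higher with TNF-α (8.87% of all genes), 1 in the knockdown (15.6%) and 0 with 5-OH-TMT (9.6%). Between medium and knockdown HLA-H rose from a mean of 0.520 to 1.36 FPKM (adjusted p = 0.00796, limma) and HLA-K from 0.448 to 1.05 FPKM (adjusted p = 0.0129, limma). Reads shared with the heavy chains could be counted there, and this was not tested.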
